A study of Homo sapiens with 18 samples.

Results

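The subject of this report is the set of nuclear genes that encode the subunits of the mitochondrial respiratory chain (complexes I to IV) and of the ATP synthase (complex V), in human umbilical vein endothelial cells (HUVEC, primary cells of the vein wall obtained from ATCC). A gene was taken by its symbol: one that begins with NDUFA, NDUFB, NDUFC, NDUFS, NDUFV, UQCR, COX4 to COX8 or ATP5, or is CYC1 or an SDH subunit gene, with NDUFAF assembly factors, pseudogenes and antisense symbols left out. This gave 80 of the 18417 genes that the arrays measured through a probe set with 1 gene symbol: 34 of complex I, 3 of complex II, 8 of complex III, 17 of complex IV and 18 of complex V. This choice of genes used no measured value, but a gene with several probe sets was read through the one of highest mean over all 18 arrays. Some subunit genes had no probe set with a single symbol and were not analysed here, among them NDUFA4, UQCRFS1 and SDHB. None of the 13 subunits encoded by mitochondrial DNA was measured in that way either, so everything below concerns nuclear transcripts.

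The respiratory chain passes electrons from NADH (through complex I) and succinate (through complex II) by way of complexes III and IV to oxygen, and complex V uses the resulting proton gradient to make ATP. Most subunits are encoded in the nucleus, translated in the cytosol and imported. Their promoters are known for binding sites of the transcription factors NRF1, GABPA (also called NRF2) and YY1. Endothelial cells make much of their ATP by glycolysis, and their mitochondria are often described as signalling organelles as well as a source of ATP. Several subunits of complex IV exist as a common form and as isoforms typical of muscle, lung or testis.

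The study exposed HUVEC to extracellular vesicles (EVs), small membrane particles shed by cells, from 2 T cell lines. Jurkat is a human T cell leukemia line that carries the surface receptor CD47, and JinB8 is its CD47-deficient mutant, so a comparison of the lines asks whether vesicles from cells without CD47 act differently on the endothelium. Vesicles were captured from the medium with antibodies to CD63 (a tetraspanin) or to MHC class I, and the cells were cultured with them for 3 days. The control cells received IgG control beads or nothing, and no time was given for the latter. Each of the 6 groups (untreated, IgG beads, Jurkat CD63+, Jurkat MHC1+, JinB8 CD63+ and JinB8 MHC1+ EVs) had 3 arrays. Medium from 3 flasks was pooled before the vesicles were isolated, and JinB8 is 1 mutant clone. Whether the arrays in a group stem from independent cultures is not stated, so every p-value refers to the spread among these arrays alone, and that spread may be technical.

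All values are log2 intensities after RMA, the authors' normalization, so a difference of 1 is a doubling. A level can be compared between arrays but not exactly between genes, so levels of marker genes below serve only as a coarse check. Array 3 of the untreated group and array 3 of the IgG bead group stood apart: their median correlation with the other arrays was 0.649 and 0.636, against 0.947 for Jurkat MHC1+ array 1 and at least 0.975 for the others. Both were left out, which leaves 2 arrays in each control group and 16 in all, and each comparison with a control is also given with them. Endothelial identity was checked with 14 marker genes, whose median lay between 9.45 and 9.87 on the 16 arrays, while the medians of T cell, fibroblast and smooth muscle, monocyte and epithelial markers lay between 3.74 and 5.21. Differences were tested with limma and called at a Benjamini-Hochberg adjusted p under 0.05 over all 18417 genes, and "unadjusted" below means a limma p under 0.05 before that adjustment. In bulk RNA, fewer cells of a type and less RNA per cell cannot be told apart.

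The median level of the 80 genes was highest in cells that received MHC1+ EVs of JinB8, at 7.87, 7.88 and 7.77 on the 3 arrays. It was 6.94, 7.22 and 7.50 with MHC1+ EVs of Jurkat, the lowest group. With CD63+ EVs it was 7.44, 7.51 and 7.65 for Jurkat and 7.21, 7.68 and 7.34 for JinB8. The IgG bead arrays gave 7.59 and 7.19 and the untreated arrays 7.70 and 7.48, while the 2 discordant control arrays gave 6.26 and 6.43. The 3 JinB8 MHC1+ arrays thus lay above the other 13, and the remaining 5 groups overlapped one another. Each of the 5 complexes had its highest group mean with JinB8 MHC1+ EVs and its lowest with Jurkat MHC1+ EVs, although in complexes III and V the lowest mean (6.97 and 8.27) hardly differed from that of JinB8 CD63+ (6.98 and 8.28).

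**Figure D1:**
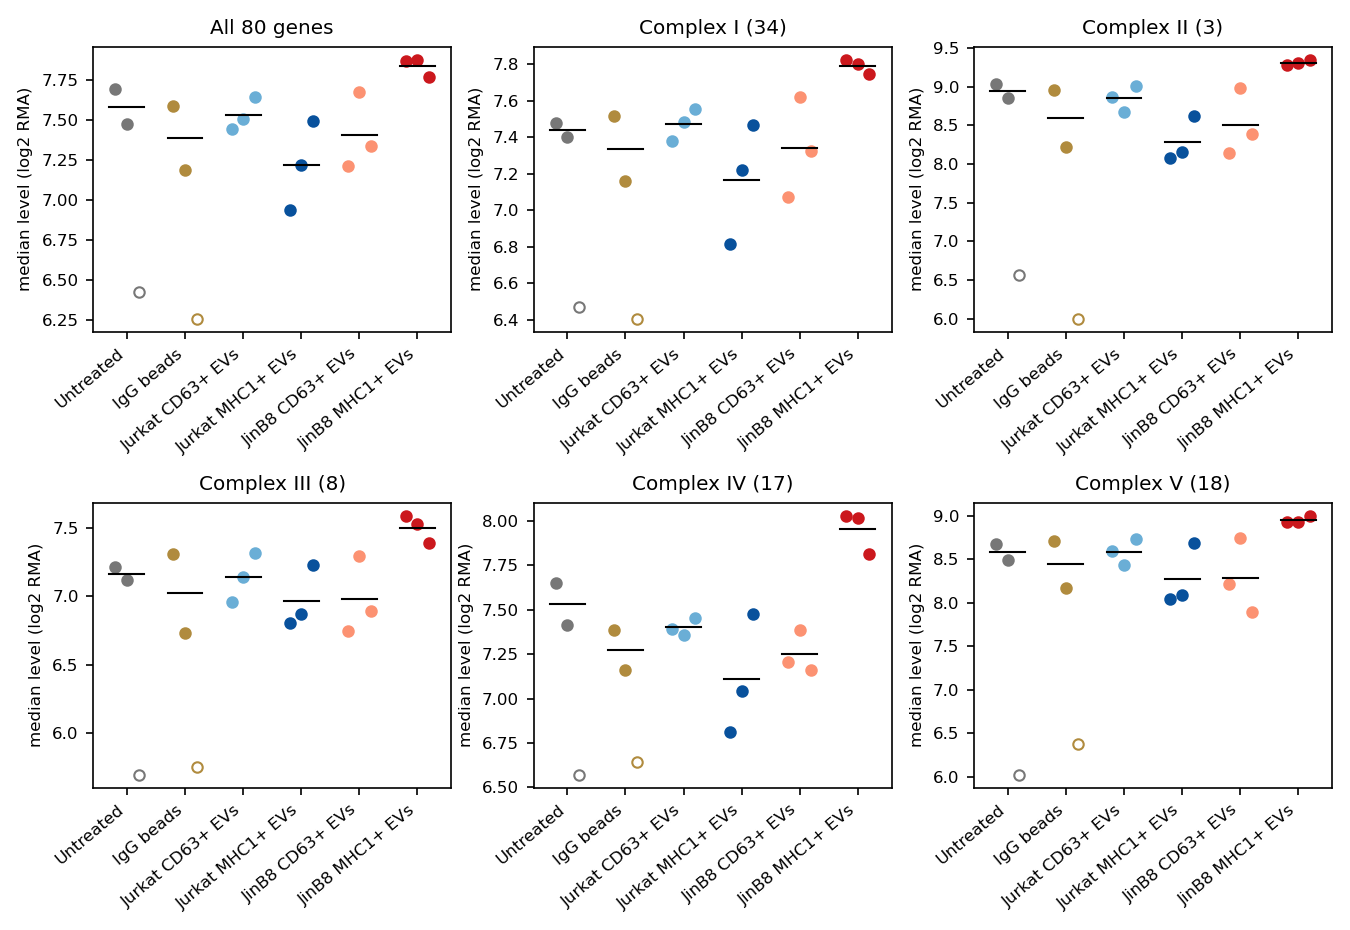
Median log2 RMA level of the 80 genes and of each complex (number of genes in brackets) on every array, by group; black lines are means of the arrays in the fit and open circles are the 2 control arrays left out. The JinB8 MHC1+ arrays lie at 7.77 to 7.88 for the 80 genes, above the other groups, and the open circles lie at 6.26 and 6.43.

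A test for any difference among the 6 groups called 43 of all genes (0.233%) and 0 of the 80 at an adjusted p under 0.05, with 33 of the 80 and 8.07% of all genes at an unadjusted p under 0.05. JinB8 MHC1+ had the highest group mean for 54 of the 80 genes (67.5%), against 23.5% of all genes, and Jurkat MHC1+ the lowest for 50 of the 80, against 25% of all genes. All 3 JinB8 MHC1+ arrays exceeded each of the other 13 arrays for 24 of the 80 genes, against 2.78% of all genes. These 24 came from each complex: NDUFA1, NDUFA6, NDUFA9, NDUFB2, NDUFB3, NDUFB6 and NDUFS3 of complex I, SDHD of complex II, UQCRB and UQCRQ of complex III, COX5B, COX6A1, COX6C, COX7A2, COX7A2L, COX7B and COX7C of complex IV, and ATP5F1B, ATP5MF, ATP5MG, ATP5MJ, ATP5MK, ATP5PD and ATP5PF of complex V. No expression is read from UQCRB, whose levels are given below. For 4 of the 80 genes (SDHC, SDHD, NDUFV2 and ATP5MK) the probe set used has an identifier among those of genes on another chromosome and is uncertain. The other ATP5MK probe set had JinB8 MHC1+ array 1 (8.95) below untreated array 1 (8.97).

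The comparison of MHC1+ EVs from the 2 lines gave the only call among the 80 genes in the 16-array fit. With JinB8 EVs the median gene was 0.54 higher on the log2 scale than with Jurkat EVs, 71 of 80 differences were above 0, and SDHD, a membrane anchor subunit of succinate dehydrogenase, rose. The call rate was low throughout: 1 of the 80 genes against 0.386% of all genes (70 higher and 1 lower). At an unadjusted p under 0.05, 53 of the 80 were higher against 17.1% of all genes, and 1 was lower against 12.5%. All 3 JinB8 arrays lay above all 3 Jurkat arrays for 57 of the 80 genes, against 15.5% of all genes, and below them for 0, against 16.6%. The median of all genes was -0.07 in this comparison, and centring each array on its median moved the median of the 80 genes to 0.67.

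**Figure D2:**
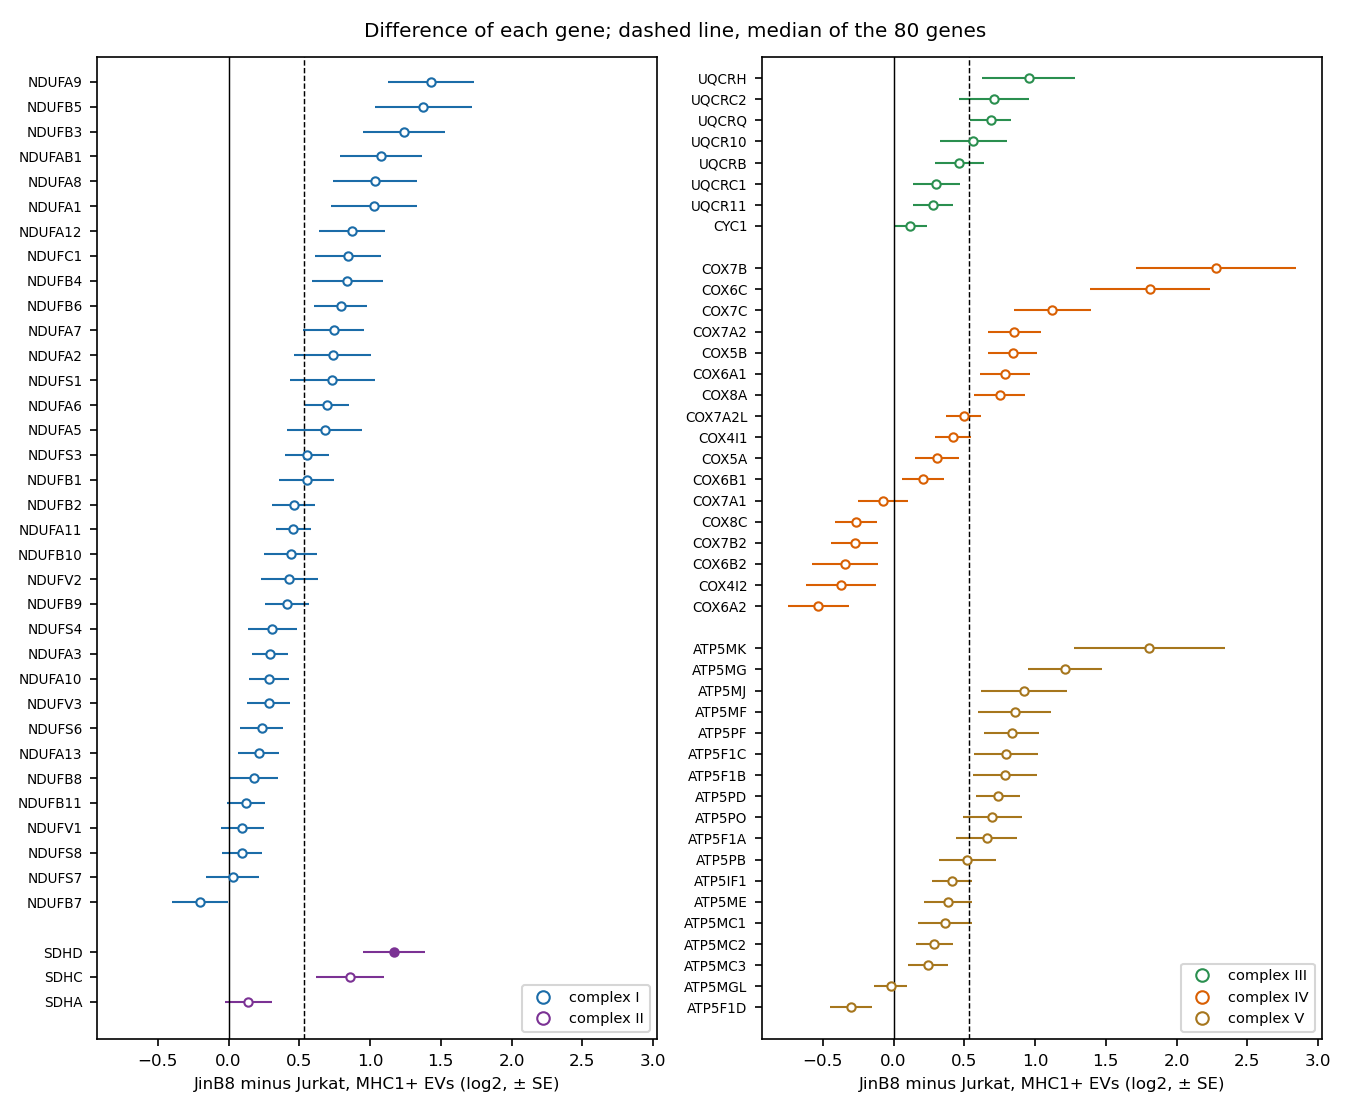
Difference of each of the 80 genes between cells given MHC1+ EVs of JinB8 and of Jurkat (log2, JinB8 minus Jurkat), with bars of 1 standard error from limma, sorted within each complex; the dashed line is the median of the 80 genes and the filled symbol the gene called. Of the 80 differences 71 lie above 0, the median is 0.54, and the 6 isoforms of complex IV from COX7A1 down to COX6A2 lie below 0.

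SDHD was at 9.37, 9.53 and 9.43 on the JinB8 MHC1+ arrays and at 8.07, 8.14 and 8.62 on the Jurkat MHC1+ arrays. It was at 8.863, 8.679 and 9.004 with Jurkat CD63+ EVs, at 8.15, 8.98 and 8.33 with JinB8 CD63+ EVs, at 8.96 and 8.22 with IgG beads and at 8.90 and 8.74 without treatment. Each JinB8 MHC1+ array was above every other array, and the untreated and Jurkat CD63+ arrays all lay above the Jurkat MHC1+ arrays; the remaining pairs of groups overlapped. The difference between the MHC1+ groups was 1.17 ± 0.22 (SE, n = 3 and 3; limma adjusted p = 0.0296). The call was lost without any 1 of 8 arrays, those of both MHC1+ groups other than Jurkat array 3, both untreated arrays and Jurkat CD63+ array 1 (differences 1.07 to 1.21, adjusted p 0.053 to 0.194 without each). The probe set used for SDHD has an identifier among those of chromosome 1 genes, although the gene is on chromosome 11. It may therefore read a near-identical copy and is uncertain. The other SDHD probe set, among chromosome 11 genes, gave a difference of 0.67. There the JinB8 MHC1+ arrays (7.22, 7.67 and 7.43) lay above the Jurkat MHC1+ arrays (6.70, 6.58 and 7.04). They were not all above untreated array 1 (7.35), and the untreated and Jurkat CD63+ arrays overlapped with the Jurkat MHC1+ arrays.

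The partners of SDHD in complex II did not pass the test. SDHC, the other membrane anchor, was 0.86 ± 0.24 higher (adjusted p = 0.0894), read through a probe set that is uncertain in the same way, and its other probe set gave 0.36. SDHA, the flavoprotein that oxidises succinate, differed by 0.14 ± 0.17 (adjusted p = 0.543), with JinB8 arrays at 9.28, 9.31 and 9.35 and Jurkat arrays at 8.82, 9.24 and 9.46. The SDHA arrays overlapped, and without Jurkat MHC1+ array 1 the sign turned (-0.04).

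In complex I, the entry point for NADH, 33 of 34 genes were above 0, with a median of 0.51 and 23 genes at an unadjusted p under 0.05. The exception, named after its value was seen, was the accessory subunit NDUFB7 (-0.20 ± 0.20, adjusted p = 0.463), which was at 0.01 without Jurkat MHC1+ array 1. The 6 core subunits, most of which carry flavin or iron-sulfur clusters, had a median of 0.26 with 3 at that level. The 28 accessory subunits had a median of 0.62 with 20. NDUFA9, an accessory subunit at the junction of the matrix and membrane arms, was at 8.31, 8.55 and 8.46 on the JinB8 arrays and at 6.33, 7.09 and 7.62 on the Jurkat arrays. The groups did not overlap, and the difference was 1.43 ± 0.30 (adjusted p = 0.0614). NDUFAB1, the acyl carrier protein of mitochondrial fatty acid synthesis, was at 7.93, 8.14 and 8.09 against 5.98, 7.49 and 7.46, a difference of 1.08 ± 0.29 (adjusted p = 0.0859). Jurkat array 1 was the low one, and without it the difference was 0.58. NDUFB2, an accessory subunit of the membrane arm, was at 7.43, 7.25 and 7.38 against 6.78, 6.94 and 6.96, a smaller difference of 0.46 ± 0.15 (adjusted p = 0.102) between groups that did not overlap.

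The catalytic end of complex I differed less firmly. NDUFS1, the largest iron-sulfur subunit, was at 8.27, 8.51 and 8.40 with JinB8 EVs and at 6.80, 8.03 and 8.15 with Jurkat EVs, a difference of 0.73 ± 0.30 (adjusted p = 0.138) that was 0.30 without Jurkat array 1. NDUFV1, which binds NADH and flavin mononucleotide, was at 8.22, 8.17 and 7.96 against 7.69, 8.18 and 8.18. The groups overlapped, with a difference of 0.10 ± 0.15 (adjusted p = 0.636).

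In complex III, which passes electrons from ubiquinol to cytochrome c, all 8 genes were above 0. Their median was 0.52, with 5 at an unadjusted p under 0.05. UQCRB, among these 8, was at 3.36 to 3.94 on the MHC1+ arrays of both lines, so no expression is read from it. UQCRQ, a small subunit that contacts cytochrome b, was at 7.65, 7.66 and 7.50 on the JinB8 arrays and at 6.84, 6.86 and 7.05 on the Jurkat arrays. The groups did not overlap, and the difference was 0.69 ± 0.15 (adjusted p = 0.0614). Its spread within each group was small, and no single array moved the difference beyond 0.65 to 0.75. The 2 core proteins differed by 0.71 ± 0.25 (UQCRC2, adjusted p = 0.112) and 0.30 ± 0.17 (UQCRC1, adjusted p = 0.22). CYC1, the catalytic cytochrome c1, was at 7.80, 7.69 and 7.61 against 7.50, 7.53 and 7.72, which overlapped (0.12 ± 0.12, adjusted p = 0.455). UQCR11, another small subunit, differed by 0.28 ± 0.14 (adjusted p = 0.187).

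Complex IV, cytochrome c oxidase, is given by isoform type, a grouping made after its values were seen. The 10 common subunits were all above 0, from 0.21 to 2.28 with a median of 0.82, and 8 were at an unadjusted p under 0.05. COX6A1, the common form of subunit VIa, was at 10.25, 10.18 and 10.11 with JinB8 EVs and at 9.22, 9.22 and 9.74 with Jurkat EVs, without overlap (0.79 ± 0.18, adjusted p = 0.0697). COX4I1, the common form of subunit IV, was at 7.41, 7.59 and 7.37 against 6.871, 6.999 and 7.245, also without overlap (0.42 ± 0.13, adjusted p = 0.0935). COX5A, a matrix-side subunit, was at 8.75, 8.68 and 8.68 against 7.97, 8.52 and 8.71, which overlapped (0.31 ± 0.16, adjusted p = 0.192).

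The widest differences among the 80, chosen for mention after their values were seen, were those of COX7B and COX6C, small membrane subunits of the same complex. COX7B was at 7.38, 7.55 and 7.52 with JinB8 EVs and at 3.78, 5.34 and 6.49 with Jurkat EVs, a difference of 2.28 ± 0.57 (adjusted p = 0.076), and COX6C differed by 1.81 ± 0.43 (adjusted p = 0.0701). The groups did not overlap, but the Jurkat values of COX7B lay far apart, and without Jurkat array 1 the differences were 1.57 and 1.43. COX5B, a zinc-binding subunit also picked after its values were seen, came nearest to a call after SDHD, at 8.03, 8.02 and 7.81 against 6.70, 7.15 and 7.48 (0.84 ± 0.17, adjusted p = 0.0501).

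The 6 tissue isoforms of complex IV (COX4I2, COX6A2, COX6B2, COX7A1, COX7B2 and COX8C) were all below 0, from -0.53 to -0.07 with a median of -0.31. Of these, COX6B2, COX7B2 and COX8C were at 3.20 to 4.21 on the 6 MHC1+ arrays, in the range of the T cell markers (medians of 3.74 to 4.35 on the 16 arrays), so no expression is read from them. The markers of other cell types were below 0 in this comparison as well, with medians from -0.27 to -0.20. COX6A2, the heart and muscle form of subunit VIa, was at an unadjusted p under 0.05 (-0.53 ± 0.22, adjusted p = 0.14). COX4I2, the lung form of subunit IV and inducible by low oxygen, was at 4.87, 4.67 and 4.81 with JinB8 EVs and at 5.61, 5.05 and 4.79 with Jurkat EVs (-0.37 ± 0.25, adjusted p = 0.286). COX7A1, the heart and muscle form of subunit VIIa, was at 6.12, 6.17 and 5.96 against 6.64, 5.90 and 5.94 (-0.07 ± 0.18, adjusted p = 0.768). Both pairs of groups overlapped, and after centring of the arrays COX7A1 was at 0.06 while COX4I2 stayed below 0.

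**Figure D3:**
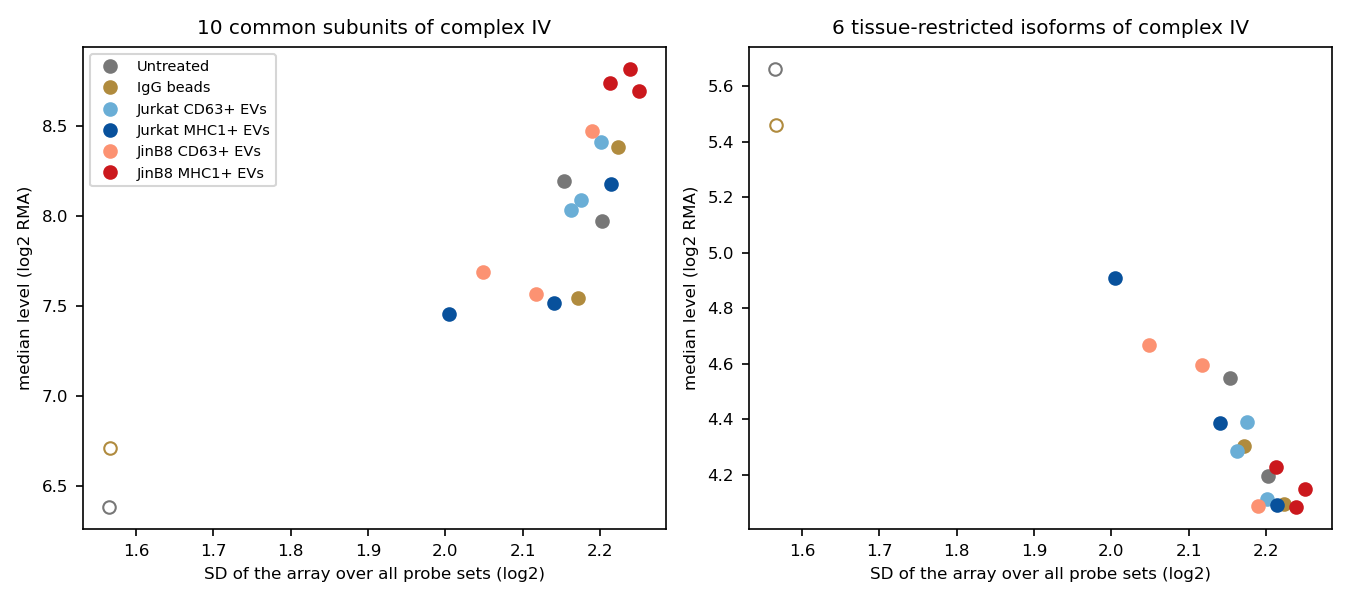
Median log2 RMA level of the 10 common subunits (left) and of the 6 tissue isoforms (right) of complex IV on each array, against the standard deviation of that array over all probe sets (log2); open circles are the 2 control arrays left out. The 3 JinB8 MHC1+ arrays have deviations of 2.21 to 2.25 and the highest medians on the left, and Jurkat MHC1+ array 1, at 2.01, has the lowest median on the left and the highest on the right among the 16 arrays in the fit.

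In complex V, 16 of 18 genes were above 0, with a median of 0.68 and 14 at an unadjusted p under 0.05. ATP5F1B, the catalytic beta subunit of the F1 head, was at 10.86, 11.04 and 11.08 with JinB8 EVs and at 9.59, 10.28 and 10.74 with Jurkat EVs, without overlap (0.79 ± 0.23, adjusted p = 0.0924). ATP5F1A, the alpha subunit, differed by 0.66 ± 0.22 (adjusted p = 0.102) and was 0.33 without Jurkat array 1. ATP5F1D, the delta subunit of the central stalk, went the other way, at 8.0, 7.84 and 7.60 against 8.30, 8.20 and 7.85 (-0.30 ± 0.15, adjusted p = 0.185), with overlap.

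Complex V was also read by its parts. The 4 genes of F1 (head and central stalk, with ATP5F1D at -0.30) and the 4 peripheral stalk genes had a median of 0.72 each, the latter all at an unadjusted p under 0.05. ATP5PD, subunit d of that stalk, was at 9.23, 9.37 and 9.36 with JinB8 EVs and at 8.37, 8.53 and 8.85 with Jurkat EVs, without overlap (0.74 ± 0.15, adjusted p = 0.0572). The 5 small membrane subunits had a median of 0.92, also all at an unadjusted p under 0.05, and ATP5MG, one of them and picked after its values were seen, differed by 1.21 ± 0.26 (adjusted p = 0.0644). The 3 genes of the rotating c ring were lower, at 0.24 to 0.36, and ATP5IF1, the inhibitor that blocks ATP hydrolysis, differed by 0.41.

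**Figure D4:**
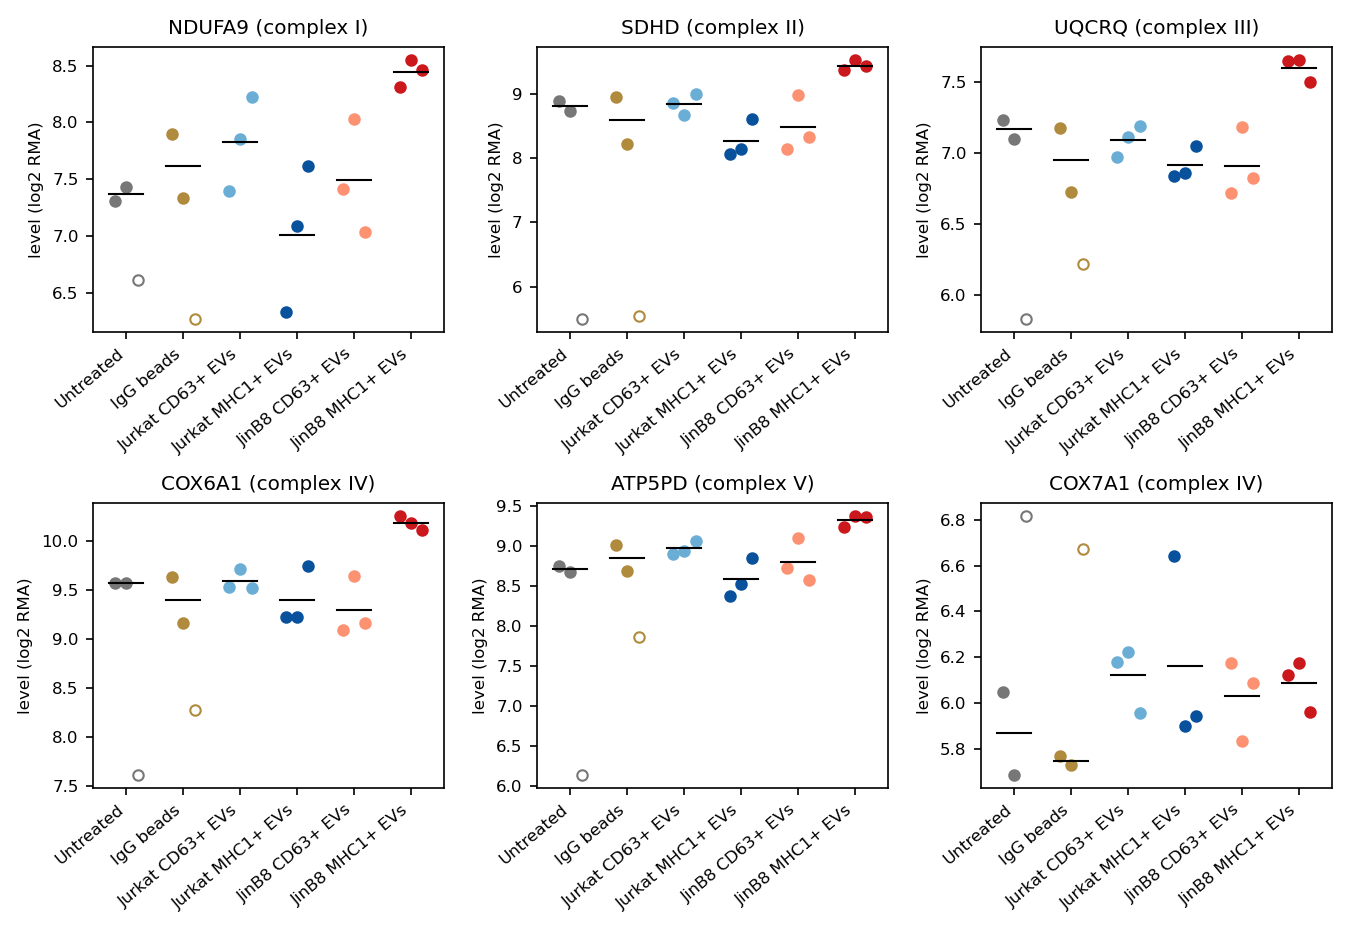
Log2 RMA level on each array, by group, of the gene of each complex with the smallest p for a difference among the 6 groups, and of COX7A1; black lines are means of the arrays in the fit and open circles the 2 control arrays left out. Through the uncertain probe set used, SDHD lies at 9.37 to 9.53 on the JinB8 MHC1+ arrays, above every other array. COX7A1 lies at 5.96 to 6.17, within the range of the Jurkat MHC1+ arrays.

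A technical measure moved with this comparison. The standard deviation of an array over all probe sets was 2.21 to 2.25 on the JinB8 MHC1+ arrays and 2.01 to 2.21 on the Jurkat MHC1+ arrays. With it as a covariate, the median of the 80 genes was 0.28, 25 were at an unadjusted p under 0.05 (3.72% of all genes), 0 were called (39 higher and 0 lower of all genes), and SDHD differed by 0.79 (adjusted p = 0.212). Of the 80 genes 10 then changed sign. The common subunits of complex IV then had a median of 0.57 and the tissue isoforms one of 0.08, so the opposite sign of the isoforms was lost. Without Jurkat MHC1+ array 1, the median of the 80 was 0.42, 42 were at an unadjusted p under 0.05 (8.45% of all genes) and 0 were called (58 higher and 0 lower of all genes). Without Jurkat MHC1+ array 3, 49 were called higher and 3 lower, along with 3249 and 2428 of all genes; without JinB8 CD63+ array 2, 18 were called, along with 242 higher and 11 lower of all genes. Without JinB8 CD63+ array 3, 2 were called (82 and 2 of all genes), and without either bead array 4 (73 and 1).

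Genes of other kinds with high signal also had medians above 0. The median difference was 0.18 for genes above the median level and 0.26 for the top 25%, of which 28.0% had all JinB8 arrays above all Jurkat arrays. For 62 cytosolic ribosomal protein genes it was 0.51, with 74.2% so placed, and for 176 small nucleolar RNAs 0.55, with 54.5%; these sets were added after the data were seen. Their part in the result for the respiratory chain was not tested. Endothelial markers had a median of -0.07, with 0 of 14 higher and 4 lower at an unadjusted p under 0.05, and the markers of the other cell types had medians from -0.27 to -0.20.

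Genes that serve the same complexes were read from lists. Of the 15 complex I assembly factors 9 were higher at an unadjusted p under 0.05 (median 0.53) and of the 28 assembly factors of the other complexes 16 (median 0.43), with 0 lower in either. At that level 17.1% of all genes were higher and 12.5% lower. NDUFAF4 and TMEM126B, both needed to build complex I, differed by 1.09 ± 0.28 and 0.95 ± 0.22 (adjusted p = 0.085 and 0.0701). COA3, which stabilises newly made COX1, differed by 1.10 ± 0.25 (adjusted p = 0.0701). Of the 12 electron carriers and exchange proteins 9 were higher (median 0.51), among them SLC25A3, the phosphate carrier that supplies the ATP synthase (0.68 ± 0.15, adjusted p = 0.0655). Of the 15 tricarboxylic acid cycle enzymes 10 were higher (median 0.56), but OGDH, the first subunit of the oxoglutarate dehydrogenase complex, and MDH2, the malate dehydrogenase, were at -0.13 and -0.06, whereas DLD, the shared E3 subunit, was at 1.09 ± 0.37 (adjusted p = 0.107). With the array standard deviation as a covariate, the medians of these 4 lists were 0.14, 0.17, 0.19 and 0.10, and 4 of 15, 3 of 28, 2 of 12 and 0 of 15 were higher at an unadjusted p under 0.05 (3.72% of all genes).

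Of the 22 import and inner membrane genes 15 were higher and 1 lower (17.1% and 12.5% of all genes), and TIMM8B, a chaperone of the intermembrane space, rose by 0.76 ± 0.15 (adjusted p = 0.0368). That call was lost with all 18 arrays (adjusted p = 0.927), without Jurkat MHC1+ array 1 (0.73, adjusted p = 0.0866) and with the covariate (0.63, adjusted p = 0.212). The covariate left 3 of the 22 import genes higher, with a median of 0.15. The 15 regulators of mitochondrial biogenesis had a median of -0.02, with 6 higher at an unadjusted p under 0.05. Within that list TFAM, which packages and transcribes mitochondrial DNA, differed by 0.99 ± 0.29 (adjusted p = 0.0935) and GABPB1, the partner of GABPA, by 0.61 ± 0.18 (adjusted p = 0.0929), while PPRC1, a coactivator related to PGC-1alpha, was at -0.07. With the covariate the list's median was 0.07, with 0 higher and 1 lower. Apart from TIMM8B, 0 genes of these 6 lists were called in limma's test.

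The promoters were searched for the letters of the 3 factors named above, in the 300 bases from 250 before to 50 after the annotated start, on both strands. RefSeq start sites (GRCh38.p14) were at hand for 67 of the 80 genes. A gene with several start sites was counted once, as a match if any of its windows matched. CCGGAAG or its reverse CTTCCGG (GABPA) occurred in 20 of 67 genes (29.9%), against 12.2% of 27305 genes. CGCATGCG (NRF1, its own reverse) occurred in 11 (16.4%, against 2.46%), and in 4 (5.97%, against 1.52%) with a G before and a C after it. AAGATGGCG or its reverse CGCCATCTT (YY1) occurred in 8 (11.9%, against 2.14%). Any of the 3 was present in 33 of 67 (49.3%, against 15.5%): 15 of 32 in complex I, 1 of 2 in complex II, 4 of 6 in complex III, 5 of 14 in complex IV and 8 of 13 in complex V. No motif contains another. The 27305 genes were not filtered by type, whereas the 80 genes are all protein-coding, so these shares compare unlike sets. A match is a string of letters and not a measured binding site.

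The 250 bases before the start are printed for 4 genes, to show what such a promoter looks like. They are those with the smallest p between the MHC1+ groups among the genes with a match, 1 start site and no other gene over the window; all are on the plus strand, written 5′ to 3′, with the matches in capitals. COX5B, COX6A1 and COX8A hold the GABPA letters 37 to 31, 16 to 10 and 18 to 12 bases before the start. COX6A1 and NDUFB4 hold the NRF1 letters 219 to 212 and 158 to 151 bases before it. They lie, in the order printed, at chr2:97645812-97646061, chr12:120437863-120438112, chr11:63974370-63974619 and chr3:120596086-120596335 of GRCh38.p14.
COX5B: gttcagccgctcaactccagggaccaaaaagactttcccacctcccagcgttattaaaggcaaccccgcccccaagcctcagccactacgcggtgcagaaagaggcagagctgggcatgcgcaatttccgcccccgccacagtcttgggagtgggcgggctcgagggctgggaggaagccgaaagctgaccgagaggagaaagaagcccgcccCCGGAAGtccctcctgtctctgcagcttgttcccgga
COX6A1: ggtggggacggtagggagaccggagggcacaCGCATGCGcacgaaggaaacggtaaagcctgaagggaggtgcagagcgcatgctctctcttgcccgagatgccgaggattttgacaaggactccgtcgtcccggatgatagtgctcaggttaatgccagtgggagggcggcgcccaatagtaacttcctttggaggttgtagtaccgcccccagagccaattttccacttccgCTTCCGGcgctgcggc
COX8A: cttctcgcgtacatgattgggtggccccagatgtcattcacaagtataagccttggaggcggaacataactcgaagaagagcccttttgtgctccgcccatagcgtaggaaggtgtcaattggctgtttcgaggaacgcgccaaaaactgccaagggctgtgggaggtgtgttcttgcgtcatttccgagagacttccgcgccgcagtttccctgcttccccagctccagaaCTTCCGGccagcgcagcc
NDUFB4: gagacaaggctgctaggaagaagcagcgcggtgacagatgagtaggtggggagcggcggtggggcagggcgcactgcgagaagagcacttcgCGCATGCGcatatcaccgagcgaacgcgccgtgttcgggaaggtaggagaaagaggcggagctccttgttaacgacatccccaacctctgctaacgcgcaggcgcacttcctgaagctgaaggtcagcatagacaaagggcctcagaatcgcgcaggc

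COX5B, COX6A1 and COX8A (the common form of subunit VIII) belong to the common subunits of complex IV, and NDUFB4 is an accessory subunit of complex I; COX8A and NDUFB4 were named by this choice of promoters. COX8A differed by 0.75 ± 0.18 (adjusted p = 0.0735) and NDUFB4 by 0.84 ± 0.25 (adjusted p = 0.0935) between the MHC1+ groups. The 2 probe sets of NDUFB4 hold identical values, so they count as 1 measurement.

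The capture antibodies were compared within each line, which asks whether CD63+ and MHC1+ vesicles of the same cells differ. With JinB8 EVs the 80 genes were lower with CD63+ than with MHC1+ vesicles, with a median of -0.44 and 72 of 80 below 0, and 0 were called against 0.185% of all genes (2 higher and 32 lower). At an unadjusted p under 0.05, 41 were lower and 1 higher, against 9.94% and 6.63% of all genes. All 3 CD63+ arrays lay below all 3 MHC1+ arrays for 46 of the 80, against 12.8% of all genes, and above them for 1, against 14.5%. This comparison shares its JinB8 MHC1+ arrays with the one above.

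The medians by complex were -0.42 (I), -0.63 (II), -0.47 (III), -0.37 (IV) and -0.47 (V). COX6A1 came nearest to a call, at 9.08, 9.64 and 9.16 with CD63+ EVs against 10.11 to 10.25 with MHC1+ EVs (-0.89 ± 0.18, adjusted p = 0.0572). UQCRQ was at 6.72, 7.18 and 6.83 against 7.50 to 7.66 (-0.69 ± 0.15, adjusted p = 0.0778), and SDHD differed by -0.96 ± 0.22 (adjusted p = 0.117). None of the 3 overlapped between the groups, whereas COX7A1 did (-0.05 ± 0.18, adjusted p = 0.867).

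The count of calls depended on single arrays. Without Jurkat MHC1+ array 1, which is in neither group but adds to the shared spread, 9 genes were called lower: COX6A1 (adjusted p = 0.0178), NDUFA1, NDUFB3, UQCRQ, COX5B, SDHD, ATP5MF, COX7A2 and NDUFS3. Of all genes 71 were then higher and 284 lower (1.93%). Without JinB8 CD63+ array 2, the highest of its group, 16 were called, along with 179 higher and 535 lower of all genes, and without Jurkat MHC1+ array 3, 1 was (5 and 57 of all genes). With the array standard deviation as a covariate (2.05 to 2.19 on the CD63+ arrays), the median was -0.17 and 0 were called (6 higher and 18 lower of all genes). Ribosomal protein genes had a median of -0.44 and small nucleolar RNAs one of -0.46, and their part in this result was not tested.

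With Jurkat EVs the sign was the other way. The median of CD63+ minus MHC1+ was 0.25, 63 of 80 genes were above 0, and 0 were called against 0.00543% of all genes. At an unadjusted p under 0.05, 16 were higher and 0 lower, against 7.1% and 3.88% of all genes, and 10 of the 80 had all CD63+ arrays above all MHC1+ arrays, against 5.92%. SDHD differed by 0.57 ± 0.22 and NDUFA9 by 0.81 ± 0.30 (both adjusted p = 0.415). Without Jurkat MHC1+ array 1, the median was 0.12. With that array kept, genes of high signal as a whole shared this sign. The median was 0.14 for genes above the median level (66.8% above 0, 8.66% wholly above). It was 0.20 for the highest-signal set used above (75.8% and 9.58%) and 0.24 for ribosomal protein genes (85.5% and 12.9%). Of the 80 genes, 70 lay above the median level and 52 in the highest-signal set. The part of signal level in this result was not tested. Averaged over both lines, CD63+ minus MHC1+ had a median of -0.09 and 0 calls (0.0217% of all genes).

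With CD63+ EVs the 2 lines differed little. The median of JinB8 minus Jurkat was -0.15, with 19 of 80 above 0, 0 called (0 of all genes too) and 0 at an unadjusted p under 0.05 in either direction, against 1.79% and 2.23% of all genes. One gene lay wholly above and 2 wholly below, against 4.29% and 5.06% of all genes. SDHD differed by -0.36 ± 0.22 and UQCRQ by -0.18 ± 0.15 (adjusted p = 0.874 for both). With the array standard deviation as a covariate the median was 0.004, 38 of the 80 genes changed sign and 0 were called (0 of all genes). The highest array of the JinB8 CD63+ group, array 2, had a median of 7.68, above all 3 Jurkat CD63+ arrays, and the other 2 were below all 3.

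Whether the 2 lines differ by a different amount for CD63+ than for MHC1+ EVs was tested directly. The median of this difference of differences was -0.66, 72 of 80 were below 0, and 0 were called against 0.0163% of all genes, with 45 lower at an unadjusted p under 0.05 (17.3% of all genes) and 2 higher (11.4%). SDHD had -1.53 ± 0.31 (adjusted p = 0.116). Without Jurkat MHC1+ array 3, 41 were called lower and 1 higher, along with 2931 lower and 1751 higher of all genes. Without JinB8 CD63+ array 2, 29 were lower and 1 higher, along with 1305 and 481 of all genes. With the array standard deviation as a covariate the median was -0.29 and 0 were called (2 lower of all genes). Averaged over both captures, JinB8 minus Jurkat had a median of 0.20, with 71 of 80 above 0, 15 higher at an unadjusted p under 0.05 (3.2% of all genes) and 0 called (0.0543% of all genes).

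Against the IgG beads, the design asks what the vesicles add to the capture beads. Of the 4 EV groups, JinB8 MHC1+ had the largest median shift. The median of the 80 genes was 0.37 above the beads, 73 of 80 were above 0, and 0 were called against 0.212% of all genes (36 higher and 3 lower). At an unadjusted p under 0.05, 31 were higher and 0 lower, against 3.21% and 1.97% of all genes, and 47 had all 3 EV arrays above both bead arrays, against 14% of all genes (2 below, against 18.4%). By complex the medians were 0.40 (I, 34 of 34 above 0), 0.61 (II), 0.36 (III), 0.37 (IV) and 0.31 (V). In complex IV, 9 genes were at an unadjusted p under 0.05: 8 of the 10 common subunits, 0 of the 6 tissue isoforms, and COX7A2L, a relative of subunit VIIa that helps complexes III and IV associate.

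COX6A1 was at 10.11 to 10.25 with these EVs against 9.63 and 9.16 with beads (0.78 ± 0.20, adjusted p = 0.226), and UQCRQ at 7.50 to 7.66 against 7.18 and 6.72 (0.65 ± 0.16, adjusted p = 0.226). SDHD was higher by 0.86 ± 0.25 (adjusted p = 0.39), NDUFA9 by 0.83 ± 0.34 (adjusted p = 0.842) and ATP5PD by 0.47 ± 0.17 (adjusted p = 0.7). For each of these 5 genes all 3 EV arrays lay above both bead arrays. COX7A2, the common form of subunit VIIa and picked after its values were seen, had the smallest adjusted p (0.90 ± 0.21, adjusted p = 0.159).

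The 2 bead arrays differed from each other by as much as this shift (medians of 7.59 and 7.19). Without bead array 1 the median was 0.56, without bead array 2 it was 0.19, and with the discordant arrays put back it was 0.76. With the array standard deviation as a covariate it was 0.34 and 3 genes were called (COX6A1, COX7A2 and UQCRQ; 112 higher and 86 lower of all genes). Without Jurkat MHC1+ array 1 COX5B was called (adjusted p = 0.0335; 93 higher and 23 lower of all genes). Ribosomal protein genes had a median of 0.40 here and 80.6% of them lay wholly above the beads.

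The other 3 EV groups lay near the beads. The medians were 0.11 for Jurkat CD63+ (66 of 80 above 0), -0.14 for Jurkat MHC1+ (21 of 80) and -0.04 for JinB8 CD63+ (34 of 80), and 0 genes were called in each, against 0.00543%, 0.0% and 0.0923% of all genes. At an unadjusted p under 0.05, Jurkat MHC1+ had 1 higher and 3 lower (2.96% and 6.37% of all genes) and the CD63+ groups 0 (Jurkat 0.825% and 0.728%, JinB8 2.74% and 3.96% of all genes). Groups without overlap with the beads were few: 3 above and 2 below for Jurkat CD63+ (9.61% and 8.63% of all genes), 5 and 4 for Jurkat MHC1+ (11.1% and 11.8%) and 5 and 1 for JinB8 CD63+ (11.9% and 12.9%). With all 18 arrays the medians were 0.44, 0.20 and 0.31, so 2 of the 3 changed sign when the discordant arrays were put back. Each of the 3 also had both signs when 1 array was left out. Without bead array 1 they were 0.26, 0.05 and 0.15, without bead array 2 -0.09, -0.34 and -0.23, and JinB8 CD63+ was at 0.03 without its own array 1.

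**Figure D5:**
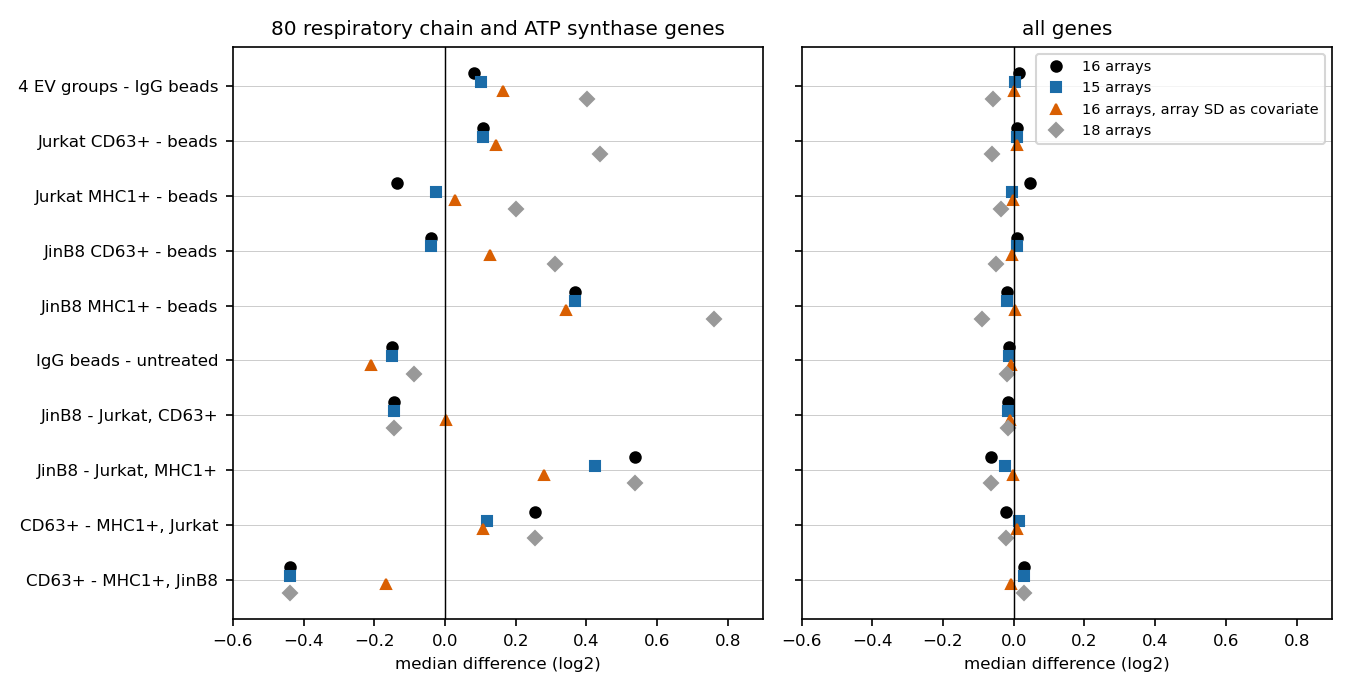
Median log2 difference of the 80 genes (left) and of all genes (right) in each comparison, from the fit on 16 arrays, on 15 (without Jurkat MHC1+ array 1), on 16 with the array standard deviation as a covariate, and on all 18. JinB8 minus Jurkat for MHC1+ EVs lies between 0.28 and 0.54 on the left, and the comparisons with beads lie further right with 18 arrays.

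The mean of the 4 EV groups was close to the beads. The median of the 80 genes was 0.08 (0.02 for all genes), 59 of 80 were above 0, and 0 were called against 0.0434% of all genes (5 higher and 3 lower), with 1 higher at an unadjusted p under 0.05 (1.19% of all genes) and 0 lower (2.02%). The extremes in complex I were NDUFB2 at 0.32 ± 0.14 and NDUFAB1 at -0.19 ± 0.27, and in complex II SDHD at 0.17 ± 0.21 and SDHA at -0.06 ± 0.16. In complex III they were UQCR11 at 0.21 ± 0.13 and UQCRC2 at -0.10 ± 0.23. In complex IV they were COX7A1 at 0.35 ± 0.17, with bead arrays at 5.77 and 5.73 below all 12 EV arrays (5.84 to 6.64), and COX5A at -0.16 ± 0.15.

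In complex V the extremes were ATP5F1D at 0.23 ± 0.14 and ATP5MGL, a retrocopy of the gene for subunit g, at -0.22 ± 0.11. ATP5MGL was at 3.79 to 4.18 on the arrays in the fit, so no expression is read from it. Its parent ATP5MG was at 8.24 to 10.13 there, and whether the ATP5MGL probes read ATP5MG was not tested. All 10 extremes named had an adjusted p of 0.999. With all 18 arrays the median was 0.40, NDUFAB1, SDHA, UQCRC2 and COX5A turned positive (0.47, 0.70, 1.18 and 0.31) and COX7A1 was at 0.04. Without bead array 1 the median was 0.26 and without bead array 2 it was -0.10.

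The beads themselves were compared with untreated cells as a check of the control. The median of beads minus untreated was -0.15, 23 of 80 genes were above 0, and 0 were called (0 of all genes as well), with 7 lower and 0 higher at an unadjusted p under 0.05 (0.695% and 0.326% of all genes). Both bead arrays lay below both untreated arrays for 20 of the 80 (17.0% of all genes) and above them for 1 (12.2%). SDHD differed by -0.23 ± 0.27, COX7A1 by -0.12 ± 0.22 and ATP5PD by 0.13 ± 0.19, all with an adjusted p of 1. With all 18 arrays the median was -0.09, SDHD was at -0.13 and ATP5PD at 0.66. The median was -0.33 without bead array 1 and 0.04 without bead array 2, so its sign rests on the latter. Against untreated cells the mean of the 4 EV groups had a median of -0.05, with 29 of 80 above 0, 0 called (0.0326% of all genes) and 5 lower at an unadjusted p under 0.05 (1.93% of all genes); with all 18 arrays that median was 0.34.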

How the data were processed

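RNA from HUVEC of 6 groups was measured on 18 Affymetrix Human Gene 1.0 ST arrays. The deposited values are log2 intensities that the authors normalized with RMA in Affymetrix Expression Console, per the submitters' processing notes, which name no version. RMA equalises distributions, yet the arrays' standard deviations over probe sets still ranged from 1.56 to 2.25, so array spread can enter any difference. Of 33297 probe sets, 12083 had no gene and 1754 several symbols; the other 19460 gave 18417 genes, each read through its probe set of highest mean. Groups came from the labels. The titles of the JinB8 samples count up from JINB8 to JINB13, JINB11 to JINB13 for MHC1+, while their bracketed names all say JINB8. All were read as JinB8. Replicate numbers follow accession order and pair nothing. No 2 arrays were identical.

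Arrays with a median correlation under 0.9 (2) were left out. limma 3.58.1 (R 4.3.3) fitted 6 group means to the other 16, tested on simulated data first; Python 3.11.15 did the rest. Depth has no counterpart here: the number of arrays limits the precision. Alternatives were all 18 arrays, 15 arrays, leave-one-out, the array standard deviation as covariate, removal of the lowest 25% of genes, limma with trend and robust, median centring, only the groups compared, and the mean over probe sets. Named genes are the called ones, per complex the highest and lowest of EVs minus beads and the smallest p among the 6 groups, and a chosen list of enzyme core and isoform genes; from each other list, 3 genes. Exceptions are marked in the text. Members and lists were chosen with earlier results of these data known.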

Additional observations from a re-analysis of the deposited data

How the results depend on the processing

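No paired analysis was possible because the labels number no replicates. Of the alternatives, the choice of arrays and the array standard deviation mattered most. With all 18 arrays the medians against beads were 0.401 for all EVs, 0.439 for Jurkat CD63+, 0.20 for Jurkat MHC1+, 0.311 for JinB8 CD63+ and 0.76 for JinB8 MHC1+. For JinB8 MHC1+ minus beads, 1 gene was called with 15 arrays (0.63% of all genes), 3 with the standard deviation as covariate (1.08%) and 9 with only the groups compared (1.59%). For JinB8 minus Jurkat MHC1+, 0 were called with 18 arrays, 15 arrays, the covariate, the mean over probe sets or only the groups compared, and 2 without the lowest 25% of genes (SDHD and COX5B; 0.485% of genes tested); the covariate gave a median of 0.28. For CD63+ minus MHC1+ of JinB8, 9 were called with 15 arrays (1.93% of all genes) and 1 with the mean over probe sets (0.212%), and the covariate gave -0.167; the difference of differences then had -0.29, and 1 gene (NDUFA9) was called among the 6 groups.

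Differences of single genes changed sign. In JinB8 minus Jurkat MHC1+, 10 of the 80 did with the covariate, 4 with 15 arrays and 2 after centring. Among them were NDUFS1 (-0.005), NDUFV1 (-0.136), SDHA (-0.233), UQCRC1 (-0.041), COX4I2 (0.089), COX7A1 (0.283), NDUFB7 (0.186), COX6B2 (0.177) and COX7B2 (0.066) with the covariate, NDUFV1 (-0.067), SDHA (-0.04), COX7A1 (0.165) and NDUFB7 (0.013) without Jurkat MHC1+ array 1, and COX7A1 (0.061) after centring. In EVs minus beads 29 of the 80 turned with 18 arrays, among them NDUFAB1, SDHA, UQCRC2 and COX5A (0.473, 0.70, 1.182, 0.312), and 20 with the covariate, the first 3 of these included (0.01, 0.049, 0.09). The cause was not tested.

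Leaving out 1 array in turn, the members called ranged from 0 to 52 for JinB8 minus Jurkat MHC1+, from 0 to 16 for CD63+ minus MHC1+ of JinB8, from 0 to 42 for the difference of differences and from 0 to 1 for JinB8 MHC1+ minus beads. The arrays that gave the highest counts also gave the most calls over all genes in the first 3 (3249 higher and 2428 lower, 179 and 535, 1751 and 2931), and the median of Jurkat MHC1+ minus beads ranged from -0.344 to 0.053. Among genes named in the text, signs turned for NDUFB7 (-0.322 to 0.013), NDUFV1 (-0.067 to 0.182), SDHA (-0.04 to 0.284) and COX7A1 (-0.206 to 0.165) in JinB8 minus Jurkat MHC1+, and for COX7A1 (-0.125 to 0.044) in CD63+ minus MHC1+ of JinB8. In EVs minus beads they turned for NDUFAB1 (-0.399 to 0.015), SDHA (-0.196 to 0.069), SDHD (-0.192 to 0.54) and UQCRC2 (-0.332 to 0.129), and in beads minus untreated for SDHD (-0.593 to 0.139), COX7A1 (-0.301 to 0.061) and ATP5PD (-0.029 to 0.297).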
